A study of Drosophila melanogaster with 2 samples.

Results

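Distal intronic Ravus-eGFP peaks on the autosomes are the sites at which tagged Ravus was found inside genes, away from exons and start sites. Ravus-eGFP, a fusion of Ravus with enhanced GFP, was pulled down from whole Drosophila melanogaster embryos by means of an anti-GFP antibody. The flies were of the strain Ravus-GFP, carried an insertion targeting Ravus and were collected at 0 to 24 h. Recovered DNA was sequenced (ChIP-seq). The series holds 1 group of 2 samples, numbered in the labels as biological replicates, with no untagged or untreated group among them, and the sex of the embryos is not given. A peak was taken from the authors' conservative list when its summit lay on an autosome, over 1000 bp from every annotated start site, inside an annotated gene and in no annotated exon. Of the 1474 peaks, 282 met these conditions, or 19.1% (95% Clopper-Pearson interval 17.2 to 21.2%). The RefSeq annotation of the same genome also placed 0 of the 282 summits within 1000 bp of a start site and 0 in an exon. How far its gene models are shared with the annotation used for the rule was not examined, so this is no independent check. All intervals given here cover counting error over peaks only. With 1 group, no difference between classes of peaks was tested, and peaks are not replicates of a condition.

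Introns are transcribed and then removed from the RNA, but the DNA in them often works as a control region. In Drosophila the long introns near the 5′ end of developmental genes hold many enhancers, as well as insulators and alternative promoters. Whole embryos over the first day mix all tissues and stages, so a site bound strongly in few cells and one bound weakly in many cannot be told apart. The signal of a peak is the authors' own value, and no source used here gives its scale.

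The DNA under 7 of the 10 strongest of these summits is shown first, because most of the class had a like AT-rich composition. Not shown among the 10 are CG12769 and Hr3, at 26.7% GC each, and Csk, at 36.6%. Each window holds the summit base and 50 bases to either side of it, on the plus strand of dm6, read from the RefSeq genome sequence. Capitals mark the longest unbroken run of A and T, or the first of them where runs tie.
CG11050, chr2L:6612667-6612767, signal 1169: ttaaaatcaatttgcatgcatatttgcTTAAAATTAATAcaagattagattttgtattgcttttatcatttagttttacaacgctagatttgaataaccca
Trl, chr3L:14759474-14759574, signal 666.5: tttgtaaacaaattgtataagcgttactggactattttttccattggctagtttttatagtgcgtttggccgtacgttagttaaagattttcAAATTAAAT
CG32486, chr3L:3060740-3060840, signal 534.0: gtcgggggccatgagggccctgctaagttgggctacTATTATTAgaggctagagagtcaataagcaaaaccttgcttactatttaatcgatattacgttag
CG9837, chr3R:8811622-8811722, signal 506: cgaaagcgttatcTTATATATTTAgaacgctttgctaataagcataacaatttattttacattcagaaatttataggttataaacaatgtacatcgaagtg
for, chr2L:3655762-3655862, signal 346: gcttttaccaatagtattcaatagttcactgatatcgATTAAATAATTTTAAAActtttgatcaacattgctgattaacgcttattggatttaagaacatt
CG9328, chr2L:20806040-20806140, signal 330: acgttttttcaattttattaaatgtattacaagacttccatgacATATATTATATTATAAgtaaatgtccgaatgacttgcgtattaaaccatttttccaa
Gug, chr3L:8458283-8458383, signal 323: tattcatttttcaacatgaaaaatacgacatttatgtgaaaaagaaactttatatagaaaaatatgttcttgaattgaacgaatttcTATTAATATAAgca
For contrast, the window centred 300 bp to the left of the Trl summit had a GC content of 48.5%, against 29.7% at the summit itself. The mean of the left and right windows of Trl was lower, at 41.6%. At CG11050 the left window had 33.7%, against 23.8% at the summit.
Trl left flank, chr3L:14759174-14759274: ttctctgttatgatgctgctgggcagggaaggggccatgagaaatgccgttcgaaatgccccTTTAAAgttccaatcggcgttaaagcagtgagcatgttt
Across the 7 summit windows the GC content ran from 20.8% in Gug to 43.6% in CG32486.

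Summits sat in a narrow AT-rich dip. The GC content of the summit windows was 29.3% ± 6.26 (SD over 282 peaks), against 44.3% ± 6.196 in windows centred 300 bp to either side. The summit was lower by 15.1 percentage points on average (SD 9.67), and it was lower than its own flanks in 263 of 282 peaks, or 93.3%. Windows of the same length covering all eligible intron sequence, 371948 in number, had a GC content of 40.1% ± 9.14. The flanks of the peaks were therefore above this intron level while the summits were below it. Averaged over the peaks, GC content reached its minimum of 26.8% at the summit and stayed below the intron mean from −80 to +90 bp.

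**Figure D1:**
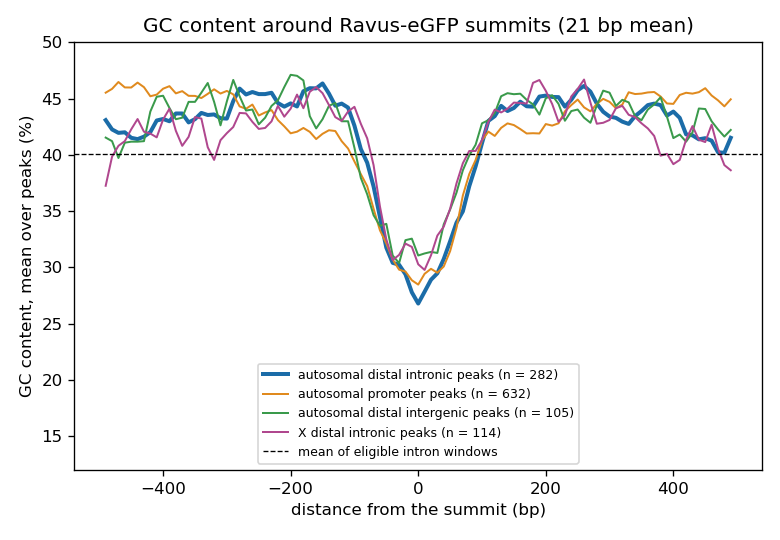
Mean GC content (%, smoothed over 21 bp) against distance from the summit (bp) for the 282 autosomal distal intronic peaks and 3 other classes of conservative peaks, with the mean of eligible intron windows as a dashed line. All 4 lines fall at the summit, and that of the intronic peaks reaches 26.8%.

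The dip had a like depth at autosomal promoter peaks and was less deep at distal intergenic peaks and at distal intronic peaks on X. Summit windows held 29.8% GC at the 632 autosomal promoter peaks, whose summits lay within 500 bp of a start site, 31.98% at the 105 distal intergenic peaks and 31.6% at the 114 distal intronic peaks on X. Summit and flanks differed by −15.1, −12.6 and −11.6 percentage points in these classes. Within the intronic class, the 141 stronger peaks had summits of 28.8% GC between flanks of 45.1%, so that summits differed by −16.3 points (SD 8.73). The 141 weaker peaks had 29.7% and 43.5%, a difference of −13.8 (SD 10.4). Summits in first and later introns had 29.0% and 29.8% GC. The longest run of A and T had a median of 11 bases at summits, 7.5 in flanks and 8 in intron windows. Runs of at least 12 bases occurred in 119 summit windows, or 42.2%, against 20.1% of intron windows. These intron windows were not matched to the summits in GC content. Such runs were in 53.6% of promoter summits, 36.2% of intergenic summits and 41.2% of distal intronic summits on X.

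In 19 of the 282 peaks the summit was not lower in GC than its flanks. The highest summit GC content, 50.5%, was shared by peaks in aop, the gene of the ETS repressor Yan, and cno, which encodes the junction protein Canoe. Their pooled signals were 123.6 and 128.2, near the median of the class. The aop window, dm6 plus strand, is shown with its longest A and T run in capitals because it departs from the rule above.
aop, chr2L:2163602-2163702: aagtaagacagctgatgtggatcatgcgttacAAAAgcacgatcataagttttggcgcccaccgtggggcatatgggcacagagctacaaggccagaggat

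A set of 26 short motifs was searched on both strands of the summit windows. The TATA box, TATAAA, was in 82 of 282 windows, or 29.1% (23.8 to 34.8%), against 8.87% of flanks. It was in 13.2% of all intron windows and in 27.6% once these were weighted to the GC content of the peaks, so its share was near that of equally AT-rich intron DNA. The homeodomain core TAATTA behaved alike, with 13.5% of summits, 4.96% of flanks and 13.8% of weighted windows. The GAGA factor repeat GAGAG was in 8.87% of summits (5.82 to 12.8%), below the 19.5% of flanks but not below the 6.497% of weighted windows. CACACA was in 3.55% of summits, 14.2% of flanks and 5.22% of weighted windows. The general E-box CANNTG was in 111 windows, or 39.4% (33.6 to 45.3%), against 44.7% of flanks, 39.0% of all intron windows and 29.3% of weighted windows. It was in 25.9% of promoter summits, 35.2% of intergenic summits and 27.2% of distal intronic summits on X. Its Snail-type form CAGGTG, which CANNTG includes, was in 8 windows, or 2.84%, against 3.37% of flanks and 1.21% of weighted windows. The Zelda motif CAGGTAG and the Su(H) motif GTGGGAA were in 0 windows. A floor of 3 counts allows a share of up to 1.06%, and the exact interval used for the other motifs reaches 1.30%. Weighted intron windows held them at 0.238% and 0.685%. These letters stand for possible sites, and their absence from a window says nothing of the factors.

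The other motifs were the AT repeat ATATATAT, the poly(A) run AAAAAAAA, the DRE TATCGATA, the BEAF-32 core CGATA, the M1BP core GGTCACAC, the Caudal forms TTTATG and TTTATT, the Bicoid core TAATCC, the Twist-type E-box CATATG, the Grainyhead motif AACCGGTT and the forkhead motif TGTTTAC. The list ended with the GATA motif AGATAA, the Sox motif AACAAT, the AP-1 motif TGACTCA, the nuclear receptor half-site AGGTCA, the Pho core GCCAT, the Mef2 motif TATTTATA and the heat shock element pair GAANNTTC. Of these, the Twist-type E-box CATATG, also a form of CANNTG, was in 15 windows, or 5.32%, against 3.19% of flanks and 3.25% of weighted windows. The nuclear receptor half-site AGGTCA was in 2 windows, or 0.709%, against 3.37% of flanks and 1.95% of weighted windows. The Pho core GCCAT was in 23, or 8.16%, against 20.9% of flanks and 11.1% of weighted windows. The M1BP core, the DRE and the Grainyhead motif were in 1 window each.

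Among all 8-base words found in at least 3% of the summit windows, 256 in number, ACTTTTGA had the highest ratio to the weighted intron windows. It was in 14 windows, or 4.96% (2.74 to 8.19%), against 0.355% of flanks and 1.21% of weighted windows, a ratio of 4.12. It was in 1.27% of promoter summits, 0.952% of intergenic summits and 0.877% of distal intronic summits on X. The word was picked as the leading one of many in these same windows, so its ratio is a description. Its context is given on the strand that reads ACTTTTGA, with the word in capitals, for 6 hosts over the range of signal.
for, chr2L:3655803-3655834, plus strand, signal 346: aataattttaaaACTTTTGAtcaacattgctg
Csk, chr3R:11649671-11649702, minus strand, signal 331: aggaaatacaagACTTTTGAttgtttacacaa
CG10283, chr2L:18477605-18477636, minus strand, signal 223: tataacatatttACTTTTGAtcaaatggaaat
Rab11, chr3R:21113177-21113208, minus strand, signal 174: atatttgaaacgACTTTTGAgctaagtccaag
neur, chr3R:9031983-9032014, plus strand, signal 133: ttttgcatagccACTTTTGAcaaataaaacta
foxo, chr3R:14077172-14077203, minus strand, signal 91.6: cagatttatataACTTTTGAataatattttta
The bases around the word differed from site to site, although in for and CG10283 it was followed by the same bases, TCAA. The next 9 words by this ratio were AAATGTAG, ACACATAT, AAACAAGT, AGGAAATA, ACTGAAAA, ATGAATTA, AGAGAAAA, AAAATAGT and AAAATACT, with ratios from 3.75 down to 2.32. A ratio of at least 2 was found for 18 of the 256 words. Among 6-base words, CACTGA led, in 24 windows, or 8.51% (5.53 to 12.4%), against 4.79% of flanks and 2.78% of weighted windows. It was in 4.75% of promoter summits, 11.4% of intergenic summits and 6.14% of distal intronic summits on X.

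The strongest distal intronic site stood far above the rest. In CG11050 the peak chr2L:6612571-6612862 had a signal of 516 in replicate 1, 645 in replicate 2 and 1169 in the pooled conservative list, where it ranked 3 of 1474. Its summit lay in an intron of only 140 bp, 64 bp from the nearest exon, so that the 292 bp interval also covers exon sequence. It was also near the distance limit, 1030 bp downstream of a CG11050 start site.

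The next sites were in Trl, CG32486 and CG9837. Trl encodes GAGA factor, a chromatin protein that binds GA repeats. Its peak had a signal of 331 in replicate 1 and 340 in replicate 2. The CG32486 peak had 216 and 322, and that in CG9837 had 220 and 276. All 3 were far above the class medians, which were 48.4 in replicate 1 and 67.9 in replicate 2. CG12769 on 2R followed with 221 and 256.

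Other strong sites lay in genes of nuclear receptors, kinases and co-regulators. The summit in Hr3, a nuclear receptor gene of the ecdysone response, also lay inside CG12912 and CG46321, and its signal was 161 in replicate 1 and 203 in replicate 2. The gene for encodes a cGMP-dependent protein kinase, and its peak had 166 and 176. Csk, a kinase that restrains Src family kinases, had 141 and 189. CG9328 had 153 and 176. Gug, the gene of the co-repressor Atrophin, had 130 and 193.

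The remaining sites among the 15 strongest had pooled signals of 268 to 295. The summit shared by aos, a secreted inhibitor of the EGF receptor, and CG33158 had 105 in replicate 1 and 190 in replicate 2. In simj, a subunit gene of the NuRD chromatin complex, the values were 131 and 152. The noncoding gene lncRNA:CR44810 had 141 and 135, the only one of the 15 that was not higher in replicate 2. eff, which encodes a ubiquitin-conjugating enzyme, had 91.8 and 173. Dys, the Dystrophin gene, had 107 and 164. All 15 were thresholded peaks in both replicates.

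The class as a whole was weaker than the promoter class. Its pooled signal ran from 75.2 to 1169, with a median of 117 and quartiles of 92.9 and 161, against a median of 141 at autosomal promoter peaks. The ratio of the medians was 0.826 in the pooled list, 0.781 by the signal in replicate 1 and 0.844 by that in replicate 2. Distal intergenic peaks had a median of 128.3 and distal intronic peaks on X one of 119. Among the 100 strongest peaks of the list, 6 were of this class.

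Most of the sites were peaks in each library alone. A thresholded peak of replicate 1 overlapped 219 of 282, or 77.7% (72.3 to 82.4%), against 83.3% of all conservative peaks. For replicate 2 it was 257, or 91.1% (87.2 to 94.2%), against 93.1%. The conservative list is built from sites that recur between the replicates, so high shares follow from how it was made. Both replicates had a thresholded peak at 208 sites, or 73.8%, against 79.3% of all conservative peaks. Replicate 1 alone had one at 11 and replicate 2 alone at 49. Neither had one at 14, or 4.96%, against 2.92%. The further series list held 256 of the 282, or 90.8%, against 93.3%. The 14 sites in neither list had pooled signals of 75.2 to 106, below the class median. Library depth was not known, so the lack of a peak may also mean a site below detection.

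**Figure D2:**
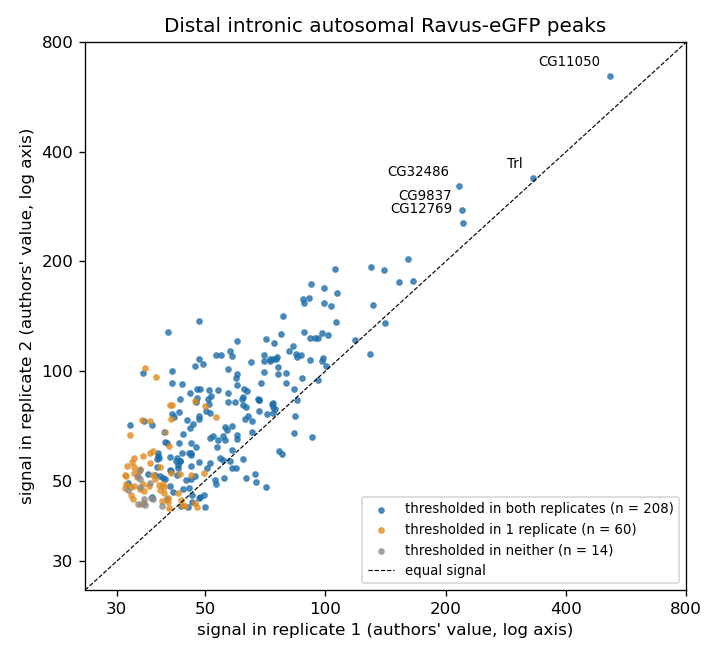
Signal of each of the 282 peaks in replicate 1 against replicate 2 (the authors' values from each ranked list, log axes), coloured by how many replicates had a thresholded peak there. Most points lie above the line of equal signal, and the 14 sites in neither thresholded list cluster at the low end.

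Signal was higher in replicate 2 at 250 of the 282 sites, and the median log2 ratio was 0.42 (SD 0.37 over sites). The whole conservative list was alike. Replicate 2 was higher at 1280 of its 1469 peaks with a signal in both ranked lists, and the median log2 ratio was 0.39. The replicates' scales need not match. The log2 signals correlated with Pearson's r of 0.82 and the ranks with Spearman's rho of 0.716 over these 282 sites. Both are across sites of the same pair of libraries and are descriptions only. At promoter peaks the same measures were 0.89 and 0.827. The replicates' summits lay a median of 18 bp apart. When the same position rule was applied to each library's own thresholded list, replicate 1 gave 268 sites and replicate 2 gave 374. A thresholded peak of the other library lay over 212 of the 268, or 79.1%, and over 212 of the 374, or 56.7%. The shares for all thresholded peaks were 82.5% and 62.9%.

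The sites had like densities on the large autosomal arms. Eligible sequence, intron DNA over 1000 bp from any start site and outside every exon, amounted to 39.1 Mb and held 7.22 peaks per Mb (exact Poisson interval 6.402 to 8.11). Arm 2L had 60 peaks or 7.70 per Mb, 2R had 69 or 8.20, 3L had 72 or 7.58 and 3R had 81 or 6.32, and these 4 intervals overlap. Chromosome 4 had 0 peaks in 526 kb, where 3.80 would fall at the mean density, and a floor of 3 counts for a count of 0 allows up to 5.70 per Mb. The exact Poisson interval used for the other arms reaches 7.01 per Mb there, which overlaps theirs. The same rule gave 12.2 per Mb on X (10.04 to 14.6), and distal intergenic autosomal sequence held 3.65 per Mb (2.99 to 4.42).

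First introns held most of the sites. A summit lay in the first intron of a transcript at 202 of 282 sites, or 71.6% (66.0 to 76.8%), while first introns made up 39.9% of eligible sequence. The densities were 12.96 per Mb in first introns (11.2 to 14.9) and 3.41 in later introns (2.70 to 4.24). First introns lie nearer to start sites, so the densities were also taken by distance. Between 1 and 2 kb first introns had 21.9 per Mb and later introns 5.46. From 2 to 5 kb the values were 13.04 and 5.01, and from 5 to 10 kb they were 9.81 and 4.66. From 10 to 20 kb they were 6.93 and 2.80. In these last 2 ranges the intervals overlapped. Beyond 20 kb 6 and 5 peaks gave 6.04 and 0.794. The density in first introns was the higher one in all 5 distance ranges.

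**Figure D3:**
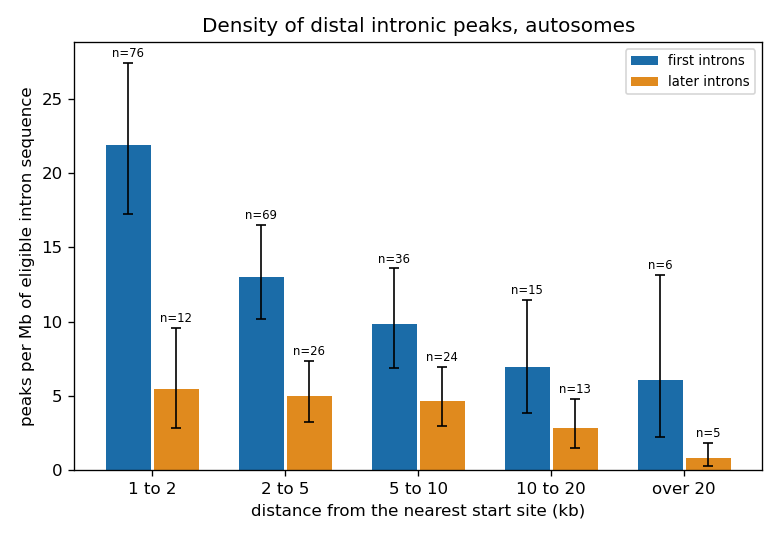
Peaks per Mb of eligible autosomal intron sequence (bars, with exact Poisson 95% intervals and the number of peaks) against distance from the nearest start site in kb, for first and later introns. First introns have the higher density in each range, 21.9 against 5.46 per Mb at 1 to 2 kb.

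Density fell with distance from the start site, from 15.5 per Mb at 1 to 2 kb to 9.06, 6.80, 4.12 and 1.51 per Mb in the ranges named above. Summits lay 1004 to 41856 bp from the nearest start site, with a median of 3470 bp, against 6518 bp for eligible bases. That start site belonged to the host gene at 209 sites, or 74.1%, and 185 summits, or 65.6%, lay downstream of it. The rule placed every site inside a gene. Neither share was counted for eligible bases, so they show no preference. Median signal was 132, 115.0, 121 and 109.9 at 1 to 2, 2 to 5, 5 to 10 and over 10 kb, highest in the nearest range and lowest in the farthest. First introns had a median signal of 124 and later introns 109. Nearest to the limit on the inside were peaks in Baldspot, a fatty acid elongase gene, at 1004 bp with a signal of 247, and in wake at 1005 bp with 93.8. Nearest on the outside were peaks in sty, an inhibitor of receptor tyrosine kinase signalling, at 989 bp with 137, and in the overlapping chif and Hyls1 at 979 bp with 412.

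The 282 sites lay in 232 host genes, of which 226 were protein-coding. Single sites were found in 181 genes, 2 sites in 41, 3 in 6, 4 in 3 and 5 in 1. Of the 4656 autosomal coding genes with eligible intron sequence of at least 1 window length, 226 were hosts, or 4.85%. Hosts were long genes, with a median of 18.1 kb of eligible intron against 1.02 kb in the other genes. Where eligible intron reached 10 kb, 151 of 911 genes were hosts, or 16.6% (14.2 to 19.2%), and below that 75 of 3745, or 2.00%.

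The gene with the most sites was sbb, known as scribbler or brakeless, which encodes a transcriptional co-repressor. Its 5 sites had signals between 39.6 and 88.6 in replicate 1 and between 56.4 and 153 in replicate 2, and spanned 35.6 kb of the 79.1 kb gene. All 5 lay in a first intron of some transcript, and 4 were thresholded in both replicates. In simj the 4 sites had 38.5 to 131 in replicate 1 and 51.4 to 152 in replicate 2, and all 4 were thresholded in both. The strongest and the weakest simj sites lay 1.00 kb apart. The 4 sites of Snoo, a regulator of TGF-beta family signalling, were spread over 48.2 kb of a 93.0 kb gene. Both replicates had thresholded peaks at 3 of them. The 4 included the site farthest from any start site, at 41856 bp, with 68.1 in replicate 1 and 83.5 in replicate 2.

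shn, whose zinc-finger protein Schnurri acts in the response to the BMP ligand Dpp, held 4 sites with pooled signals of 88.9 to 141. ush, the gene of a zinc-finger partner of GATA factors, held 3 within 5.87 kb, at 97.1 to 113, and all were thresholded in both replicates. Nak, a kinase gene that acts in endocytosis, held 3 within 1.19 kb of its first intron, the smallest gap being 0.573 kb. msn, a kinase gene of the JNK pathway, held 3 at 83.2 to 141. The others with 3 were babos, CG32264 and CG31145. Both replicates had thresholded peaks at 3 of 4 sites in shn, 2 of 3 in Nak and 1 of 3 in msn. In babos and CG32264 all 3 sites had them, and in CG31145 1 of 3 did. All sites of simj, Snoo, Nak, babos and ush lay in a first intron, as did 2 in shn and 2 in CG32264. The sites of msn and CG31145 all lay in later introns. The labels give a fragment size of 200 to 800 bp, a range that holds the smallest gap in Nak. Over the class, another conservative peak lay within 1000 bp of 26 sites and within 5000 bp of 90, or 31.9%. The same shares were not counted for other peaks, so these values show no closer spacing in this class.

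**Figure D4:**
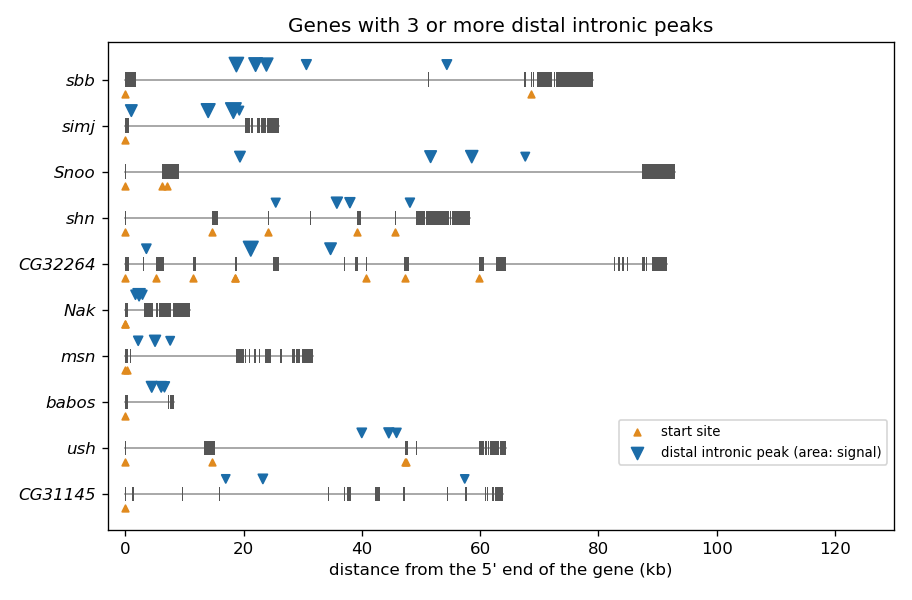
Maps of the 10 genes with 3 or more distal intronic peaks, drawn to scale in kb from the 5′ end of each gene, with exons as boxes, start sites as upward triangles and peaks as downward triangles whose area follows the pooled signal. The 5 sites of sbb span 35.6 kb, whereas the 3 of Nak lie within 1.19 kb.

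Some host genes also had a promoter peak. A conservative peak lay within 500 bp of a start site of 36 of the 226 coding hosts, or 15.9% (11.4 to 21.4%), against 9.28% of the 4656 coding genes. Divided by size, it was 21 of 151 hosts with at least 10 kb of eligible intron, or 13.9% (8.82 to 20.5%), against 65 of 760 other genes, or 8.55% (6.66 to 10.8%). Those intervals overlap. For smaller genes it was 15 of 75 hosts, or 20% (11.6 to 30.8%), against 331 of 3670, or 9.02% (8.11 to 9.99%). Neither difference was tested. Sites in hosts with a promoter peak had a median signal of 130 (n = 49) and the others 116 (n = 233). Among these hosts were Trl, for, sbb, lncRNA:CR44810 and Dys.

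Host genes were counted in 12 lists, described by the number of listed genes with eligible intron that held a site, beside 4.85% for all autosomal coding genes. The lists were written by hand with earlier results of these data known. A high share in a list is therefore a description and not independent of the hosts. List and density are given together, because genes of most lists had more intron sequence than the median gene.

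Signalling genes had more eligible intron than most coding genes. The kinase list had a median of 11.9 kb and that of the Notch, Wnt, Hedgehog and BMP pathways 8.55 kb. The receptor tyrosine kinase and Ras list had 10.3 kb, and all coding genes had 1.17 kb. Of coding genes with at least 10 kb, 16.6% were hosts. Of 26 genes in the list of cAMP, cGMP and kinase signalling, 10 were hosts, or 38.5% (20.2 to 59.4%), at 25.2 sites per Mb of eligible intron against 7.30 for all coding genes. One of the 10, sli, is a guidance ligand entered in that list in error, and without it 9 of 25, or 36.0%, were hosts. Besides for they included Pde11, a phosphodiesterase gene, with a pooled signal of 161, and wts, the Hippo pathway kinase, with 2 sites of up to 111. The rest were Doa, Pka-C1, Pkn, Pka-C3, aPKC and dco, at 137 down to 77.7. Of 42 genes of the Notch, Wnt, Hedgehog and BMP pathways, 9 were hosts, or 21.4% (10.3 to 36.8%), at 18.4 per Mb. mam, the Notch co-activator, had 243 and wit, a BMP type II receptor, 238. Dad, the inhibitory Smad, had 153 and neur, a ligase acting on the Notch ligand Delta, 133. The others were rdx, shn, fz, dlp and arr. In the receptor tyrosine kinase and Ras list 5 of 34 were hosts, or 14.7% (4.95 to 31.1%), at 12.7 per Mb, namely aos at 295, S at 198, ths at 182, aop and drl.

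Transcription factor lists differed among themselves. Of 32 BTB and other zinc-finger genes, 9 were hosts, or 28.1% (13.7 to 46.7%), at 15.04 sites per Mb, with Trl at 666.5 and zfh1 at 194 the strongest. The others were dar1, ken, luna, rib, sr, fru and ab. Of 34 homeobox genes, 2 were hosts, or 5.88% (0.720 to 19.7%), at 4.29 per Mb, namely hth at 147 and the Hox gene Antp with 2 sites of up to 103. Of 18 genes of the ecdysone response and nuclear receptors, 3 were hosts, at 9.50 per Mb, namely Hr3 at 364, the kinase gene Eip63E at 198 and ftz-f1. The 5 hosts among 42 chromatin regulators were JIL-1, a histone kinase, at 202, the NuRD subunit Mi-2 at 198, the Polycomb group gene Psc at 194, trx at 155 and tou. That list held 6 sites in 0.177 Mb, or 33.8 per Mb, above the kinase list. In the list of insulator proteins and MADF-BESS factors, Trl, counted there too, and hng3 were hosts among 12 genes. Their 2 sites lay in 0.0238 Mb, which gives the highest density of the 12 lists, 83.96 per Mb, from the fewest bases.

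Guidance, RNA-binding and channel genes held few sites for their intron length. Axon guidance and cell recognition genes, with a median of 29.9 kb of eligible intron, had 4 hosts of 49, or 8.16% (2.27 to 19.6%), at 2.53 sites per Mb. These were side at 171, Sema1a at 116, Fas3 and sli. RNA-binding and splicing regulators had 4 hosts of 30 at 2.45 per Mb, namely Rbfox1 at 120, shep at 108, pum and Rbp6. Ion channel and synaptic genes had 2 of 45 at 2.60 per Mb, the potassium channel genes Irk1 at 177 and KCNQ at 128.5. Cytoskeleton and muscle genes had 4 of 48 at 6.55 per Mb, namely Zasp66, scrib, Zasp52 and crb, at 117 down to 82.2. The lists differ in distance to start sites, and their differences were not tested.

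**Figure D5:**
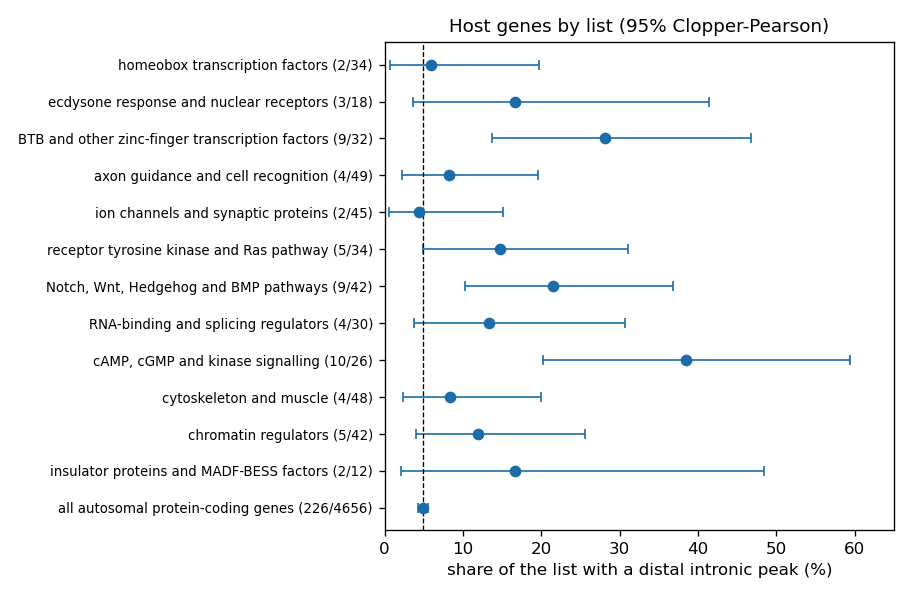
Share of each list's genes with eligible autosomal intron sequence that hold a distal intronic peak (points, %, with 95% Clopper-Pearson intervals), with hosts and genes in brackets. The dashed line is the 4.85% of all autosomal coding genes. Genes of most lists have more eligible intron than the median coding gene. The kinase list has the highest share, 38.5%. The lists were chosen with earlier results of these data known.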

How the data were processed

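The authors deposited peak lists on dm6 for each replicate and for both together, ordered by the irreproducible discovery rate (IDR). The deposited signal is the peak caller's value per peak, and no source used here gives its scale. The authors' ranked lists also hold −log10 of the IDR, at most 5, and it was at least 2 at every conservative peak. The deposited summit offset served as a position and is no measurement. Aligner: not given in the sources used here. Peak caller: likewise. Read depth was not analysed here.

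Summits were placed on genes of Ensembl 115 (BDGP6.54, the dm6 sequence), leaving out 5809 transposable element insertions that it lists as genes. Peaks were matched by an overlap of 1 bp. Windows reaching 50 bp to either side of a centre were read at summits, at 300 bp to either side and as tiles of eligible intron. Tiles were weighted to the peaks' GC distribution. No test was run. Intervals are exact at 95%. The code, in Python 3.11.15 with pandas 2.3.3, numpy 2.4.6, scipy 1.17.1 and matplotlib 3.10.9, was tested on simulated data.

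The members, gene lists and motifs were chosen with earlier results of these data known. Of 579 list entries, 561 matched a gene symbol. Genes were named as hosts of the 15 strongest sites, hosts of 3 or more, the strongest 2 hosts of each list, and the sites nearest to the distance limit; further list hosts and the GC-rich sites were named after their values were seen. Sequences come from the RefSeq genome. Alternatives were other lists, distances, annotations, positions and windows.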

Additional observations from a re-analysis of the deposited data

How the results depend on the processing

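Of 88 values recomputed under 13 settings, 73 stayed within the spread of the reported value (its interval, 1 SD between replicates, or 1.5 times for counts). A change of direction was looked for only in the GC difference. The other values, the signal ratio among them, were compared only with their spread. The GC difference was negative under every setting for which it was recomputed. Leaving out a replicate gave 6.86 to 9.58 peaks per Mb and a GC difference of −14.3 to −12.9 points. It was −11.1 points in windows reaching 100 bp to either side and −16.4 among the stronger 737 peaks. With start sites over 500 bp away, the share of the list was 25.4% and the density 8.80 per Mb. With over 2000 bp, they were 13.2% and 5.81 per Mb, and first introns held 64.9%. Among the stronger 737 peaks, 116 were in the class, or 15.7%, at 2.97 per Mb in 113 host genes, and replicate 1 and replicate 2 peaks lay over 99.1% and 100% of them. Transposable element insertions kept as genes, an alternative chosen after seeing the data, left 276 sites. No paired analysis was possible because the series has 1 group. Unknown depth, an unknown signal scale and 2 replicates limit all values.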

Other observations

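Density also varied with the length of the intron around the summit. It was 3.35 per Mb in introns up to 2 kb, 12.3 from 2 to 5 kb, 9.12 from 5 to 10 kb, 9.18 from 10 to 20 kb, 6.86 from 20 to 50 kb and 2.41 above 50 kb. The median intron was 10.7 kb long, and the longest 126 kb. Dividing each intron into equal parts, the 5′ part held 108 summits, the middle part 112 and the 3′ part 62. Eligible bases were not counted by part, so these counts show no preference for a position.

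Transposable element insertions covered 7.70% of eligible intron bases and held 1 of 282 summits, in CG33298, with 43.8 in replicate 1 and 59.4 in replicate 2. Soft-masked bases held 73 summits, or 25.9%, against 23.3% of eligible bases. Repeats limit where short reads can be placed, and their part in these values was not tested. In 15 sites the summit lay in more than 1 gene.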
